A study of Mus musculus with 9 samples.

Results

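Hc encodes complement component C5 in the mouse, and it was taken up here together with the components C3, Cfb, Cfp, C1qa, C1qb and C1qc and the receptors C5ar1 and C3ar1, as members of the complement system. The members were chosen by name with earlier results in view, Hc because its level was high with 1 of the hairpins, so the values of Hc below are a description and carry no test. Of the 9 genes, 8 had a probe set among the 19572 named probe sets of the array; C3 was not analysed here. Each of the 8 had a single probe set, so the rule of taking the one with the highest mean left nothing to choose.

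C1498 is a mouse leukaemia line that the title of the series assigns to acute myeloid leukaemia. In the study, lentivirus delivered GFP together with a short hairpin RNA against Zeb1, which had the sequence named C or the sequence named D. Control cells received a negative control construct, Scr, and GFP-positive cells were collected 2 weeks after infection. The groups Scr, shZeb1_C and shZeb1_D had 3 arrays each, all from C1498 cells carrying a lentiviral GFP construct. The labels do not tell whether replicate arrays trace back to independent infections. The p-values therefore reflect the variation among these arrays alone, which could be technical, and each sample is a pool of infected cells.

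The complement system is a cascade of plasma and cell-surface proteins in which a trigger, C1q bound to antibody or the alternative pathway turning over by itself, leads to cleavage of C3 and then of C5. The fragments C3a and C5a attract and activate leukocytes through C3ar1 and C5ar1, and C5b starts the membrane attack complex. Liver cells make most of the circulating components, macrophages are a main source of C1q, and myeloid cells carry the anaphylatoxin receptors and store properdin.

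Zeb1, the target of both hairpins, stood at 48.3% of Scr in shZeb1_D (log2 fold change -1.05 ± 0.16, SE; limma adjusted p = 0.0263) and at 86.9% in the arrays labelled shZeb1_C (-0.20 ± 0.16; limma adjusted p = 0.895). Markers of the labelled cell type were only partly high. Of 8 leukocyte and myeloid markers 3 exceeded 7.10 (log2), the median level over the named probe sets. They were Ptprc, the pan-leukocyte antigen CD45, at 14.40 to 15.31, and the myeloid markers Mpo at 7.43 to 7.79 and Csf2rb at 7.25 to 7.86. The myeloid regulators Spi1 and Cebpa ran from 5.00 to 5.72 and from 5.92 to 6.34, below that level on every array, as did Elane, Itgam and Cd33. Of 8 T and NK cell markers 4 lay above the median level: Cd3e, Cd3d and Cd3g, chains of the T cell receptor complex, at 13.41 to 15.32, 10.65 to 12.74 and 15.38 to 15.71, and Cd4 at 7.58 to 8.52. Cd8a ran from 6.03 to 6.97, Klrb1c from 4.75 to 7.35 and Ncr1 from 4.59 to 4.83. Nkg7, a granule protein of cytotoxic cells, ran from 4.32 to 12.65 and was the marker of this list that was called, with a log2 fold change of 5.93 ± 0.80 in shZeb1_C (limma adjusted p = 0.0109) and 0.60 ± 0.80 in shZeb1_D (0.780). A first principal component of the residuals within groups held 57.9% of their variance and parted the 9 arrays into 2 sets, of 5 and of 4. Scr replicate 8, shZeb1_C replicate 12 and shZeb1_D replicates 14 and 15 formed the smaller set, so the sets are not evenly spread over the groups. Values within each set are given for Hc only.

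Hc was high on all 3 arrays of shZeb1_D and low on the other 6. Its log2 value was 5.92, 5.62 and 5.46 on Scr replicates 7, 8 and 9. On shZeb1_C replicates 10, 11 and 12 it was 6.31, 6.64 and 6.04, and on shZeb1_D replicates 13, 14 and 15 it was 10.56, 9.63 and 10.79. No array of shZeb1_D came near those of the other groups, and the lowest of them exceeded the highest Scr array by 3.71.

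Over 3 arrays each, the mean of Hc and its SD were 5.67 ± 0.23 for Scr, 6.33 ± 0.30 for shZeb1_C and 10.33 ± 0.61 for shZeb1_D. The log2 fold change of shZeb1_D against Scr was 4.66 ± 0.30 (SE), a 25.3-fold higher signal, and that of shZeb1_D against shZeb1_C was 3.997 ± 0.30, or 16.0-fold. In the arrays labelled shZeb1_C, Hc was 0.66 ± 0.30 above Scr, and the lowest of these arrays lay 0.12 above the highest Scr array. The order of the groups was thus Scr, shZeb1_C and shZeb1_D. The highest and the lowest array lay 0.46 apart within Scr, 0.60 within shZeb1_C and 1.16 within shZeb1_D, so the first 2 groups lie close together beside their own spread. On the Scr and shZeb1_C arrays Hc was dimmer than the median probe set, a range in which a signal may be mostly background, and detection calls were not used here.

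The height of Hc in shZeb1_D did not rest on a single array. Leaving out each of the 9 arrays in turn kept the log2 fold change against Scr between 4.43 and 5.01. Within the larger array set it was 4.87, where replicate 13 is the only shZeb1_D array. Within the smaller set it was 4.59, where replicate 8 is the only Scr array. These values within the sets thus do rest on single arrays. For shZeb1_C against Scr the same values were 0.51 to 0.81, and 0.79 and 0.42 within the sets, the last being replicate 12 against Scr replicate 8.

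**Figure D1:**
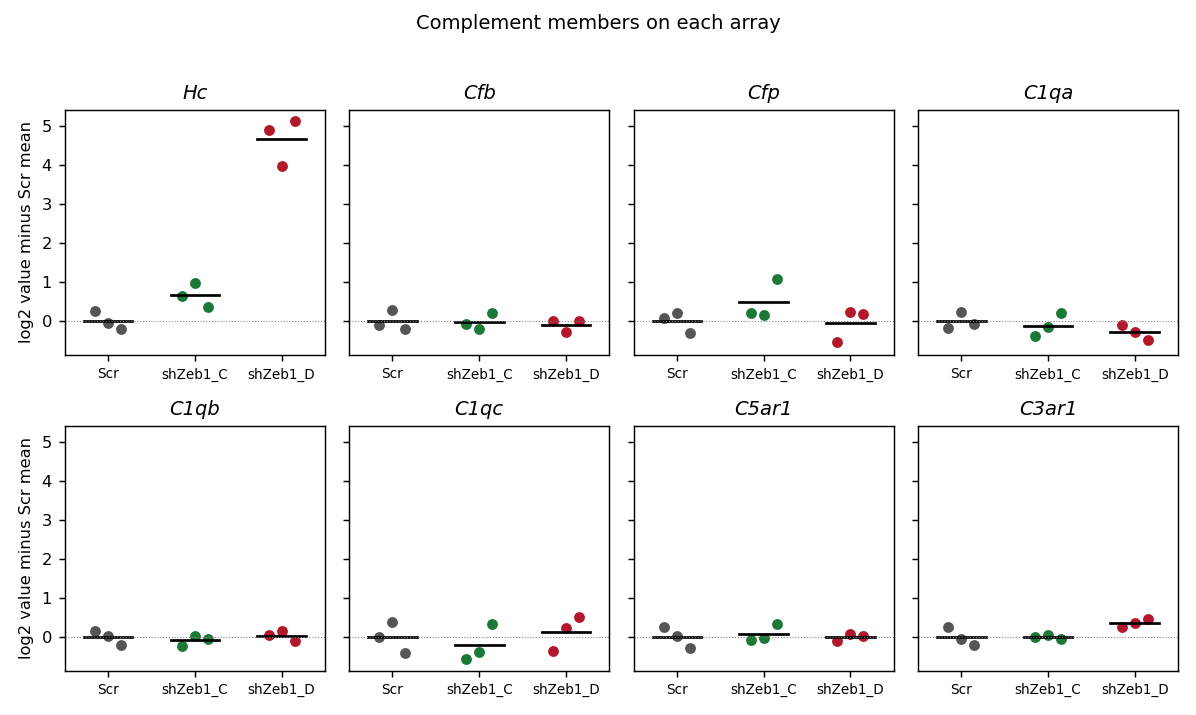
Log2 value minus the Scr mean of the same gene (vertical axis) for the 8 measured complement members on each of the 9 arrays, by group; points are arrays and bars are group means (n = 3). Hc stands 4.66 above Scr in shZeb1_D, while every other member stays within 1.07 of its Scr mean on each array.

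Hc lies on chromosome 2, and its neighbours stood near their Scr levels. Of the 20 measured genes nearest to it in the RefSeq order of assembly GRCm38.p6, 10 on each side, 0 were called by limma at an adjusted p under 0.05 in shZeb1_D, and their median log2 fold change was -0.11, from -0.61 to 0.42. Traf1, a signalling adaptor of tumour necrosis factor receptors and the nearest measured gene on one side, had a log2 fold change of -0.11 there, and AI182371 on the other side 0.03. In the arrays labelled shZeb1_C the 20 genes had a median of 0.02, from -0.45 to 0.58, and 0 were called. Of all named probe sets 0.843% were called in shZeb1_D and 0.945% in shZeb1_C. At these backgrounds a list of 20 genes would mostly hold no call, so the counts of 0 do not set the neighbours apart. None of the genes around Hc came near its log2 fold change of 4.66 in shZeb1_D. The neighbours were not chosen by their values, although their order comes from an annotation whose build may differ from that of the array.

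**Figure D2:**
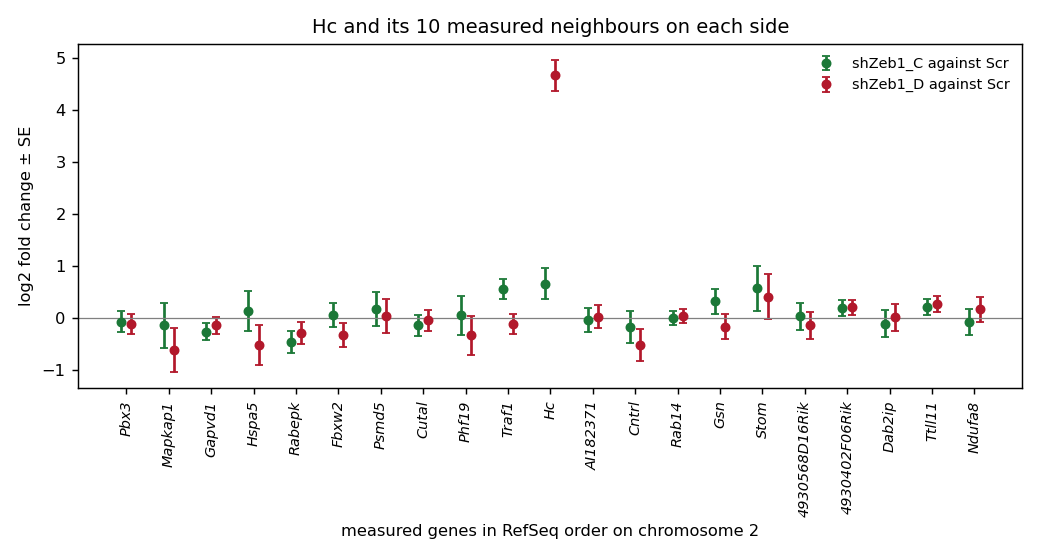
Log2 fold change against Scr, with SE, of Hc and its 10 measured neighbours on each side in gene order along chromosome 2, for shZeb1_C (green) and shZeb1_D (red), each with n = 3 against 3. The neighbours run from -0.61 to 0.42 in shZeb1_D and Hc stands at 4.66.

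Zeb1 binds E-box sequences of the form CACCTG, and related CACCTA sites, through its zinc fingers. The promoter of Hc is shown because Hc is the member whose level differed, and those of Cfp and C1qb because they are the members whose promoters hold such a sequence. Each is the 250 bases before a RefSeq start site (GRCm38.p6), on the minus strand and written 5′ to 3′, at chr2:35061413-35061662 for Hc, chrX:20931556-20931805 for Cfp and chr4:136886201-136886450 for C1qb. Capitals mark CACCTG or CACCTA on either strand.
Hc: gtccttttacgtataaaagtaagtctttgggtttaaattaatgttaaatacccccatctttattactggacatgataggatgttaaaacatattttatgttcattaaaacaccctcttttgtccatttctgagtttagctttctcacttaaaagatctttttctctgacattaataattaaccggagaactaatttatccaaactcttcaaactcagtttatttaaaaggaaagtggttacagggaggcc
Cfp: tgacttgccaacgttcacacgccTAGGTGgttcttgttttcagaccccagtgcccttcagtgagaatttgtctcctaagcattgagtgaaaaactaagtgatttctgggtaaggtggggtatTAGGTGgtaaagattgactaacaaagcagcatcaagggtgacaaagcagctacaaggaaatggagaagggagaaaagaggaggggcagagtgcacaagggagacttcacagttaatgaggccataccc
C1qb: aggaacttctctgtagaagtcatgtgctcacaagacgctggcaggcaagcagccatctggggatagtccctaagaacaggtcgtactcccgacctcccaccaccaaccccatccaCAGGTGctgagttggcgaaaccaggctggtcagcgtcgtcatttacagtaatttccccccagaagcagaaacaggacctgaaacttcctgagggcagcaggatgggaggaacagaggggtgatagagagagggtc
RefSeq promoters were matched for 7 of the 9 members. Neither sequence was found in the 250 bases of Hc, nor in those of C3, C1qc, C5ar1 and C3ar1. Cfp, which encodes properdin, had CACCTA 2 times, and C1qb had CACCTG once, each on the strand opposite to the gene. Of 32851 promoter windows of this length, 17.2% held CACCTG, 8.73% CACCTA and 24.4% either. The STAT motif TTCNNNGAA, which reads the same on both strands, was in none of the 7 member promoters and in 7.02% of all windows. A match is a run of letters and not a measured binding site, and a missing match says only that these letters are absent from this window. Neither Cfp nor C1qb, described next, was called with all 9 arrays and no covariate, while 1 alternative called Cfp between the hairpins.

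Among the remaining components, none of the 3 chains of C1q was called. C1qa, C1qb and C1qc encode the subunits of the molecule that recognises bound antibody, and lie side by side on chromosome 4, between Lactbl1 and Epha8. Of the 20 nearest measured genes there 0 were called with either hairpin, beside 0.945% of all probe sets in shZeb1_C and 0.843% in shZeb1_D. C1qa ran from 4.91 to 5.62 over the 9 arrays, C1qb from 6.03 to 6.42 and C1qc from 5.74 to 6.82. In each of the 3 genes the arrays of all groups overlapped. Their log2 fold changes in shZeb1_D were -0.28 ± 0.20 (SE), 0.04 ± 0.15 and 0.13 ± 0.31, with 95% intervals of -0.72 to 0.17, -0.31 to 0.38 and -0.58 to 0.83. In the arrays labelled shZeb1_C they were -0.11 ± 0.20, -0.08 ± 0.15 and -0.21 ± 0.31. Limma adjusted p was 0.572 to 0.940 in shZeb1_D and 0.992 to 0.996 in shZeb1_C.

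Macrophage markers were read beside C1q and were mostly dim as well. Of 7 measured markers 1 exceeded the median level, the Fc receptor Fcgr1. Its log2 fold change of 1.64 ± 0.40 in shZeb1_C missed the threshold (limma adjusted p = 0.131). Adgre1 and Csf1r, which define macrophages, ran from 6.45 to 7.13 and from 5.15 to 5.71. The mean over the 7 markers was 5.95 to 6.12 in Scr, 6.19 to 6.41 in shZeb1_C and 6.22 to 6.35 in shZeb1_D. In the 3 comparisons 0 of 7 were called, beside 0.945%, 0.843% and 0.848% of all probe sets. At these backgrounds a list of 7 genes would rarely hold a call.

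The alternative pathway was represented by Cfb and Cfp. Cfb, the protease precursor of the alternative C3 convertase, ran from 4.99 to 5.57 with group means of 5.27 ± 0.26 (SD, n = 3), 5.25 ± 0.21 and 5.18 ± 0.16 in Scr, shZeb1_C and shZeb1_D. Its log2 fold changes were -0.02 ± 0.19 (SE) in shZeb1_C and -0.09 ± 0.19 in shZeb1_D, with 95% intervals of -0.44 to 0.40 and -0.51 to 0.33. Cfb lies between Nelfe and C2 on chromosome 17. Of the 20 genes nearest to it 0 were called with either hairpin, beside 0.945% of all probe sets in shZeb1_C and 0.843% in shZeb1_D. Changes of Cfb as large as that of Hc lie far outside these intervals.

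Cfp encodes properdin, which stabilises that convertase, and was the only tested member brighter than the median probe set. Its log2 value was 8.99, 9.12 and 8.62 on Scr replicates 7, 8 and 9. It was 9.13, 9.07 and 9.98 on shZeb1_C replicates 10, 11 and 12, and 8.38, 9.14 and 9.10 on shZeb1_D replicates 13, 14 and 15. Replicate 12 was the highest array and replicate 13 the lowest, and all groups overlapped. The log2 fold change was 0.48 ± 0.30 (SE) in shZeb1_C (limma adjusted p = 0.791) and -0.04 ± 0.30 in shZeb1_D (0.970), with 95% intervals of -0.19 to 1.15 and -0.71 to 0.63. Between the hairpins it was -0.52 ± 0.30 (limma adjusted p = 0.543). That difference turned on single arrays and on the setting. It was -0.23 without shZeb1_C replicate 12, -0.27 without shZeb1_D replicate 13 and -0.19 with array weights (limma adjusted p of 0.710, 0.647 and 0.639). In a fit with a covariate for the array sets, an alternative chosen after seeing the data, it was -0.73 and was called (limma adjusted p = 0.0458). That covariate was made from the residuals of these same values. The p-values it gives, here and for other genes below, are thus a description and no independent test. The change of Cfp in shZeb1_C was 0.19 without replicate 12. None of the 20 measured genes nearest to Cfp on chromosome X was called in any of the 3 comparisons, beside 0.945%, 0.843% and 0.848% of all probe sets.

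Neither receptor for the anaphylatoxins was called. C5ar1, the receptor of the fragment that is cut from the Hc product, ran from 5.91 to 6.53. Its means were 6.20 ± 0.27 (SD, n = 3), 6.28 ± 0.22 and 6.20 ± 0.10 in Scr, shZeb1_C and shZeb1_D. The log2 fold changes of C5ar1 were 0.08 ± 0.18 (SE) in shZeb1_C and 0.00 ± 0.18 in shZeb1_D (limma adjusted p of 0.998 and 0.995), with an interval of -0.41 to 0.41 in shZeb1_D. C5ar2, the second C5a receptor and the gene next to C5ar1 on chromosome 7, had log2 fold changes of 0.10 ± 0.15 and 0.23 ± 0.15 (limma adjusted p of 0.989 and 0.520).

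C3ar1, the C3a receptor, was 4.63, 4.32 and 4.18 on Scr replicates 7, 8 and 9. It was 4.37, 4.42 and 4.33 on the shZeb1_C arrays and 4.63, 4.73 and 4.84 on the shZeb1_D arrays. The shZeb1_D arrays lay above all 3 of shZeb1_C, and the lowest equalled the highest Scr array. The log2 fold change of C3ar1 was 0.36 ± 0.15 (SE) against Scr and 0.36 ± 0.15 against shZeb1_C, and neither passed the test (limma adjusted p of 0.354 and 0.404; unadjusted p of 0.0447 and 0.0431). All values of C3ar1 were far below the median level. Of the 20 measured genes nearest to C3ar1 on chromosome 6, 1 was called in shZeb1_D and between the hairpins, Apobec1. The 20 ran from -1.84 to 2.23 in shZeb1_D. Around C5ar1 0 of 20 were called in any comparison. Of all probe sets 0.945% were called in shZeb1_C, 0.843% in shZeb1_D and 0.848% between the hairpins.

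Counted together, 0 of the 7 tested members were called by limma in shZeb1_C against Scr, where 0.945% of all named probe sets were called, 0 in shZeb1_D against Scr (0.843%) and 0 in shZeb1_D against shZeb1_C (0.848%). At an unadjusted p under 0.05 limma gave 0, 1 and 1 of 7, the last 2 being C3ar1, against 8.77%, 13.6% and 11.7% of all probe sets. At these backgrounds a list of 7 genes would rarely hold a call, so the counts of 0 do not set the members apart. The groups did not overlap for 0 of 7 members in shZeb1_C, 0 of 7 in shZeb1_D and 1 of 7 between the hairpins, beside 14.2%, 17.0% and 15.2% of all probe sets. The median log2 fold change of the 7 was -0.02 in shZeb1_C and 0.00 in shZeb1_D, beside 0.00 and 0.04 over all probe sets. The 95% intervals of the 7 members against Scr stayed between -0.91 and 1.15 in shZeb1_C and between -0.72 and 0.83 in shZeb1_D. Both comparisons with Scr share the same 3 control arrays.

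**Figure D3:**
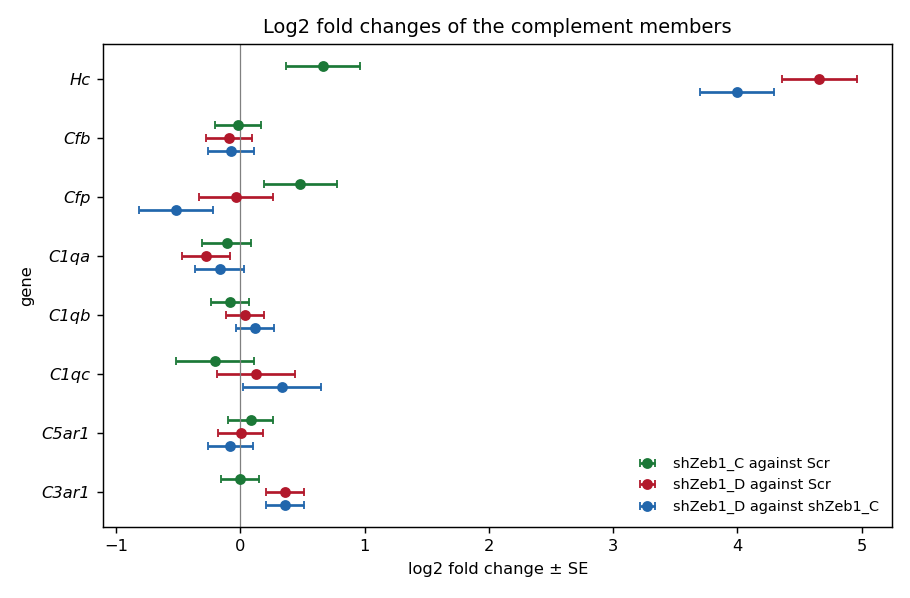
Log2 fold change (horizontal axis) with SE of the 8 measured complement members in the 3 comparisons of 3 arrays against 3. The 7 members other than Hc lie between -0.52 and 0.48, and Hc lies at 4.66 in shZeb1_D against Scr and at 3.997 against shZeb1_C.

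The rest of the pathway was followed in 50 further genes, of which 48 were measured and 14 lay above the median level. None of the 48 was called by limma in any of the 3 comparisons, beside 0.945%, 0.843% and 0.848% of all probe sets. At an unadjusted p under 0.05 limma gave 4 of 48 in shZeb1_C, all higher, 7 in shZeb1_D, 6 higher and 1 lower, and 4 between the hairpins, 2 in each direction, beside 8.77%, 13.6% and 11.7% of all probe sets. These shares lie near the background. The medians over the 48 were 0.06 in shZeb1_C and 0.14 in shZeb1_D, beside 0.00 and 0.04 over all probe sets. The groups did not overlap for 8 of the 48 in shZeb1_C, 6 higher and 2 lower, beside 14.2% of all probe sets, and for 7 between the hairpins, 4 higher and 3 lower, beside 15.2%. In shZeb1_D they did not overlap for 12, beside 17.0%. All 12 lay above Scr, where 10.3% of all probe sets did so, and 0 below, where 6.65% did.

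Among the 15 initiators of the classical and lectin pathways, C1ra, a protease of the C1 complex, had log2 fold changes of 0.67 ± 0.18 (SE) in shZeb1_C and 0.45 ± 0.18 in shZeb1_D (limma adjusted p of 0.166 and 0.317). Of the settings run, only the covariate for the array sets called C1ra, in shZeb1_C (0.67, limma adjusted p = 0.0491). C1rb, a close copy of C1ra whose probe set may read the same RNA, had 0.50 ± 0.16 and 0.39 ± 0.16 (limma adjusted p of 0.296 and 0.341). C2 and C4b, which together form the classical C3 convertase, had -0.03 ± 0.25 and 0.14 ± 0.19 in shZeb1_D. Of the 6 genes of the terminal pathway, which act after the product of Hc in building the membrane pore, 0 were called with either hairpin, beside the 0.945% and 0.843% of all probe sets given above, and their median in shZeb1_D was 0.12, from -0.17 to 0.30. At that background a list of 6 genes would rarely hold a call.

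The membrane regulators protect a cell from complement on its own surface. Cd59b, a copy of the inhibitor of the membrane pore, was 6.42, 6.77 and 6.47 on Scr replicates 7, 8 and 9. It was 7.56, 7.11 and 8.24 on the shZeb1_C arrays and 7.47, 8.74 and 8.53 on the shZeb1_D arrays. Every array of either hairpin lay above all 3 Scr arrays. The log2 fold change of Cd59b was 1.69 ± 0.37 (SE) in shZeb1_D, which missed the threshold (limma adjusted p = 0.0871), and 1.08 ± 0.37 in shZeb1_C (0.335). Without shZeb1_D replicate 13 the change of Cd59b in shZeb1_D was 2.08 and passed the test (limma adjusted p = 0.0321). That fit leaves only shZeb1_D arrays of the smaller array set, against Scr arrays of both sets. Hairpin and array set are thus partly mixed in it. The change of Cd59b was also called with array weights (1.94, limma adjusted p = 0.00896) and with the covariate for the array sets (1.43, limma adjusted p = 0.00613). That covariate called Cd59b in shZeb1_C as well (1.08, limma adjusted p = 0.0134). At an adjusted p under 0.05 no other setting called Cd59b, among them another quantile normalization and leaving out any other array. Cd59a, the neighbouring copy, had 0.54 ± 0.35 in shZeb1_D (limma adjusted p = 0.533), and the probes may not separate the copies fully.

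The remaining regulators showed smaller differences. Cr1l, the rodent regulator Crry, had log2 fold changes of 0.42 ± 0.16 (SE) in shZeb1_C and -0.15 ± 0.16 in shZeb1_D. Cd46 had 0.28 ± 0.25 and 0.59 ± 0.25, and Cd55, which speeds the decay of convertases, -0.47 ± 0.33 and -0.11 ± 0.33. Serping1, the C1 inhibitor, had 0.26 ± 0.18 and 0.07 ± 0.18, and none of these 4 genes passed the test with either hairpin (limma adjusted p from 0.346 to 0.921). Cfi, the protease that inactivates C3b, had 0.61 ± 0.15 in shZeb1_D (limma adjusted p = 0.117) at levels of 4.96 to 5.77. Of the settings run, only array weights called Cfi, in shZeb1_D (0.68, limma adjusted p = 0.0279).

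Of the complement receptors that are integrins, Itgb2, the shared beta chain CD18, was 8.04, 7.38 and 8.25 on the Scr arrays. It was 8.58, 8.23 and 8.02 in shZeb1_C and 7.83, 6.72 and 6.35 in shZeb1_D. Its log2 fold change was -0.92 ± 0.38 (SE) in shZeb1_D against Scr (limma adjusted p = 0.333) and -1.31 ± 0.38 against shZeb1_C (limma adjusted p = 0.200), where the groups did not overlap. Without shZeb1_D replicate 13 the difference of Itgb2 between the hairpins was -1.74 and passed the test (limma adjusted p = 0.0405). Here too only shZeb1_D arrays of the smaller array set remain, against shZeb1_C arrays of both sets. The difference of Itgb2 was called too with array weights (-1.67, limma adjusted p = 0.0200) and with the covariate for the array sets (-1.04, limma adjusted p = 0.0290). Array weights called Itgb2 in shZeb1_D against Scr (-1.35, limma adjusted p = 0.0378). No other setting called Itgb2, among them another quantile normalization and leaving out any other array. Itgam, the alpha chain of complement receptor CR3, had 0.03 ± 0.19 and 0.06 ± 0.19 in shZeb1_C and shZeb1_D (limma adjusted p of 0.998 and 0.914). It ran from 6.08 to 6.70, and Itgax, the other integrin alpha chain of the list, from 5.04 to 5.51. Both were below the median level on every array, so the values of Itgb2 do not show a change of a whole complement receptor.

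**Figure D4:**
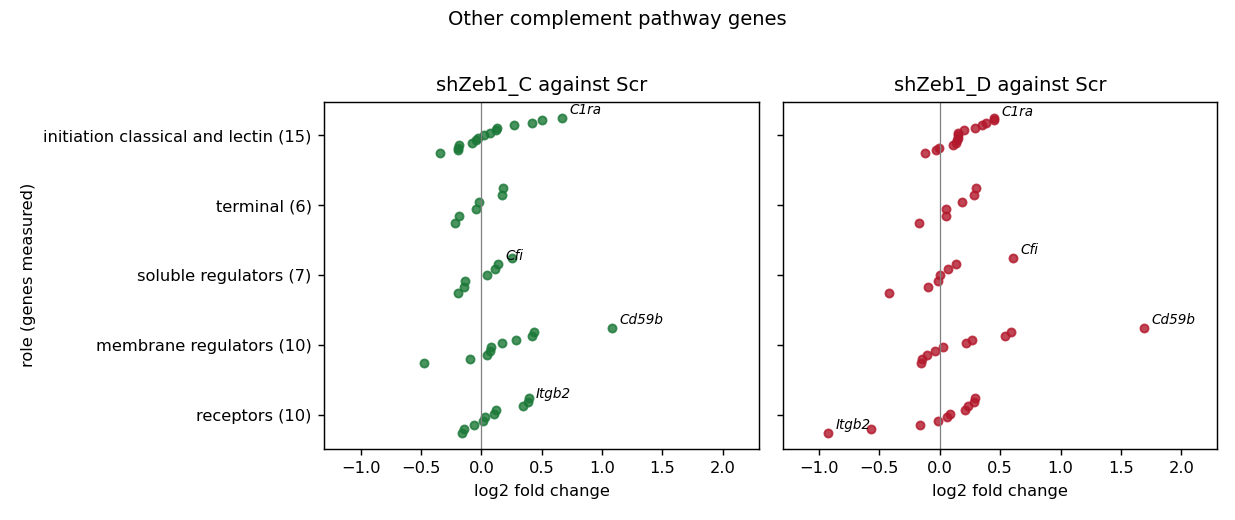
Log2 fold change against Scr (horizontal axis) of the 48 other complement pathway genes by role, 1 point a gene, for shZeb1_C (left) and shZeb1_D (right), 3 arrays against 3. None was called in the fit plotted; Cd59b lies farthest to the right in both comparisons, at 1.08 and 1.69, and Itgb2 farthest to the left in shZeb1_D at -0.92.

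As liver cells are a main source of the Hc product, hepatocyte markers were read beside it. Of 7 markers 2 lay above the median level by their mean over the arrays, Apoa2 at 7.23 to 9.41 and Serpina1a at 6.93 to 7.56. In any comparison 0 were called, beside 0.945% of all probe sets in shZeb1_C, 0.843% in shZeb1_D and 0.848% between the hairpins. A list of 7 genes would rarely hold a call at these backgrounds. Their mean was 6.24 to 6.34 in Scr, 6.03 to 6.28 in shZeb1_C and 6.15 to 6.65 in shZeb1_D, and Alb, serum albumin, ran from 6.56 to 7.82. Over arrays of pooled cells, a higher signal in each cell and more cells with the RNA cannot be told apart.

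Over the 9 arrays the named genes most like Hc were Ptpn12, Apobec1, Armc10, Cstad and Adh5, with Pearson's r of 0.990, 0.980, 0.979, 0.968 and 0.966. The arrays share their groups, and the measure rests on the 3 shZeb1_D arrays that are high in each gene, so it is a description. Ptpn12, a protein tyrosine phosphatase, had means of 10.99 ± 0.15 (SD, n = 3), 11.41 ± 0.17 and 13.15 ± 0.30 for Scr, shZeb1_C and shZeb1_D. Apobec1, the enzyme that edits apolipoprotein B RNA, averaged 8.06 ± 0.06, 8.60 ± 0.12 and 10.29 ± 0.62. Like Hc, each of the 5 genes was lowest of its group on shZeb1_D replicate 14. They were chosen by r over these same arrays, so this shared order is no separate result. Armc10 differed by 1.92 from Scr in shZeb1_D, Cstad by 0.67 and Adh5 by 0.38. Ptpn12 and Armc10 lie on chromosome 5, Apobec1 on 6 among the 20 measured genes nearest to C3ar1, Adh5 on 3 and Cstad on 2, the chromosome of Hc. Among the 7 tested members r with Hc ran from -0.53 for C1qa to 0.84 for C3ar1.

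**Figure D5:**
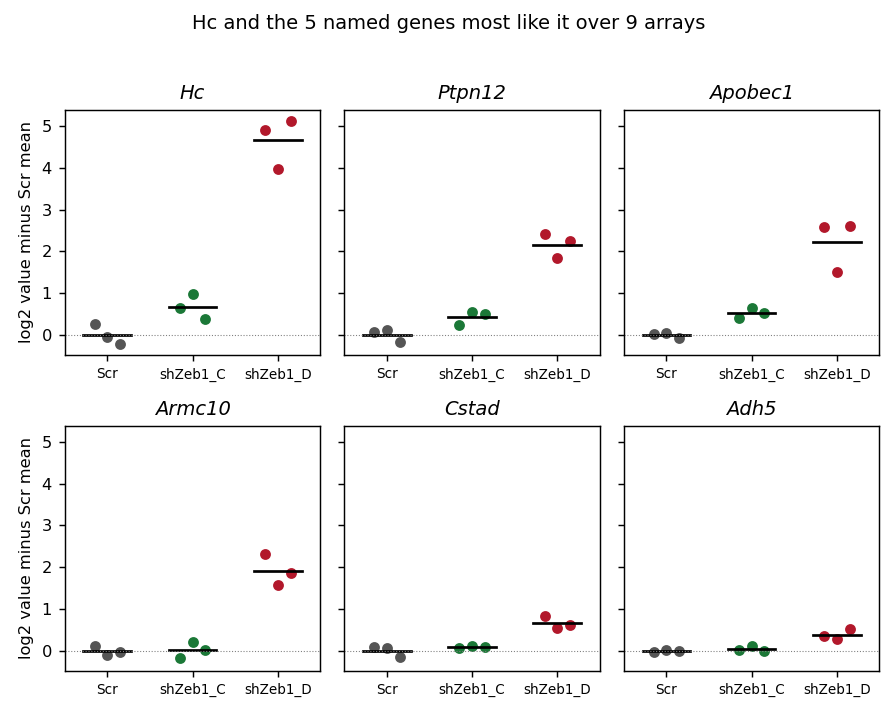
Log2 value minus the Scr mean of the same gene (vertical axis) on each of the 9 arrays for Hc and the 5 named genes with the highest Pearson's r with it; points are arrays and bars group means (n = 3). The shZeb1_D arrays are highest in each gene, by 0.38 on average for Adh5 and 4.66 for Hc.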

How the data were processed

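Total RNA from 9 samples was biotin-labelled and hybridised to 1-colour arrays, per the labels' protocols. The tools listed, with no version, in the submitters' processing notes are RMA and Transcriptome Analysis Console. What the authors deposited is the RMA signal on a linear scale with its decimal point lost. For all 199854 values, log2 was recovered by placing the point so that log2 became a multiple of 0.01, within 1e-06 steps, and 0 values lacked a single such place. Unnamed probe sets (2634) were not tested. Symbols came from the platform annotation, and symbols and gene order from RefSeq (GRCm38.p6).

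Each named probe set was fitted with limma 3.58.1 in R 4.3.3, with 1 mean per group, all 9 arrays, empirical Bayes moderation and Benjamini-Hochberg adjustment over 19572 probe sets within each of 3 comparisons; a call is an adjusted p under 0.05. Array medians were 7.02 to 7.17, and 3 arrays a group limit the precision. The steps were tested on simulated data. The members and gene lists were chosen with earlier results of these data known. The text names each member, each pathway gene called and a preset group of regulators and receptors. It also names the genes nearest to Hc and the 5 genes most like it. C1ra, C1rb, Cd59b, Cfi, C1qbp and Itgax were picked after their values were seen.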

Additional observations from a re-analysis of the deposited data

Results flagged for a closer look

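For 3 genes of the wider pathway every array of shZeb1_C lay on one side of the Scr mean and every array of shZeb1_D on the other. Cr1l averaged 13.36 in Scr, 13.78 in shZeb1_C and 13.21 in shZeb1_D, a difference between the hairpins of -0.57 ± 0.16 (SE) on the log2 scale (limma adjusted p = 0.204). Itgb2 averaged 7.89, 8.28 and 6.97, a difference of -1.31 ± 0.38 (limma adjusted p = 0.200). C1qbp, a mitochondrial protein first found as a binder of C1q, averaged 16.00, 15.85 and 16.09, a difference of 0.24 ± 0.12 (limma adjusted p = 0.485). The test of the difference between the hairpins called none of the 3, and the opposite direction itself was not tested.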

How the results depend on the processing

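Under every alternative run, the 54 recomputed log2 fold changes of Hc and the 360 of the 7 tested members moved by less than 1 SD. Several alternatives could not move them, so those repeats say nothing about stability. They were other choices of probe sets, the mean per gene and another empirical Bayes moderation. Fits of the compared groups only, or without an array of the third group, were of this kind too. Those of Hc kept their sign, while 23 of the 360 turned theirs in 9 fold changes, none of them called under any setting. In shZeb1_D, Cfp (-0.04) was 0.08 after another quantile normalization and 0.20 with array weights, C1qb (0.04) was -0.06 after that normalization and with array medians subtracted, and C1qc (0.13) was -0.11 with the array sets as a covariate. C5ar1 between the hairpins (-0.08) was 0.04 with array weights. Leaving out 1 array gave -0.14 to 0.13 for Cfb, -0.27 to 0.03 for C1qa and -0.06 to 0.21 for C5ar1 in shZeb1_C. In shZeb1_D it gave -0.19 to 0.06 for Cfb, -0.18 to 0.21 for Cfp, -0.06 to 0.12 for C1qb and -0.07 to 0.37 for C1qc, and between the hairpins -0.16 to 0.05 for Cfb and -0.15 to 0.05 for C5ar1. The cause was not tested. For Hc in shZeb1_D against Scr, settings other than leaving out an array gave 4.57 to 4.75. The number of tested members called stayed at 0 in all settings but 1: with the array sets as a covariate, chosen after seeing the data, 1 was called between the hairpins (Cfp). That covariate also called 2 pathway genes in shZeb1_C (C1ra and Cd59b), 1 in shZeb1_D (Cd59b) and 1 between the hairpins (Itgb2). Beside these stood 875, 772 and 700 calls among all 19572 probe sets. Array weights called 3 pathway genes in shZeb1_D (Cd59b, Cfi and Itgb2) and 1 between the hairpins (Itgb2), beside 1076 and 833 of all 19572 probe sets. An adjusted p under 0.10 called 1 in shZeb1_D (Cd59b), beside 300 of all probe sets. None of these counts sets the pathway list apart from all probe sets. Leaving out 1 array gave 0 to 1 pathway calls in shZeb1_D, 0 to 1 between the hairpins and 0 in shZeb1_C. In the first 2 the 1 came without shZeb1_D replicate 13, beside 169 and 158 of all probe sets.

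The calls over all probe sets, which give the background, moved more. For shZeb1_C against Scr (185), shZeb1_D against Scr (165) and shZeb1_D against shZeb1_C (166) they were 572, 1076 and 833 with array weights, 316, 300 and 313 at an adjusted p under 0.10, and 875, 772 and 700 in the fit with a covariate for the array sets. With only the arrays of the compared groups the last 2 were 68 and 81. Leaving out 1 array gave 43 to 214, 14 to 213 and 49 to 162. Counts moved by over 1.5 times without Scr replicates 7, 8 and 9 (104, 84 and 43 in shZeb1_C; 58, 87 and 14 in shZeb1_D), shZeb1_C replicates 10 and 11 (103 and 92; 93 and 103; 62 and 84 between the hairpins), shZeb1_D replicate 14 (80 in shZeb1_D) and shZeb1_D replicate 15 (117, 17 and 49). The cause was not tested. No paired analysis was possible because the replicate numbers differ between the groups. All tested members but Cfp were dim, which limits what the arrays could show for them.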
